A study of Mus musculus with 7 samples.

Results

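Lipoprotein receptors and sortilin-family sorting receptors were examined in MS-1, a line of mouse endothelial cells, with and without overexpression of lipoprotein lipase (LPL). The 8 genes Vldlr, Lrp1, Lrp8, Lrp10, Sort1, Sorl1, Scarb1 and Lsr were taken by symbol from the 49585 genes listed for each library, and each symbol matched a single gene. RNA sequencing of total RNA gave 3 control libraries, labelled wild type, and 4 libraries labelled LPL overexpression, all from MS-1 cells grown in DMEM. The labels do not state from which species the LPL came or how it was introduced, name no vector-only control, and do not say whether a group came from 1 clone or from separate cultures. The p-values below therefore measure the spread between these libraries, which may be technical.

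Endothelial cells meet circulating lipoproteins directly, and several receptor families let them bind, take up or carry these particles across. Receptors of the LDL receptor family bind apolipoprotein E and other ligands at the cell surface and enter the cell through clathrin-coated pits. Sortilins carry a VPS10 domain and sort cargo, LPL among it, between the Golgi, the surface and endosomes. SR-BI, the product of Scarb1, mediates selective uptake of cholesteryl ester from HDL and takes part in LDL transcytosis in endothelium. The comparison asks how these receptor genes stood when the lipase, itself a ligand of several of the receptors, was overexpressed.

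Sense-orientation reads numbered between 24328418 and 29210847 per library. Lpl itself had 8 reads over the 3 controls, and with overexpression its level reached 441 ± 13.1 CPM (SD, n = 4), where CPM are counts per 1000000 reads scaled by TMM. Most endothelial markers were abundant in both groups. Vwf was low, at 1.19 CPM in the controls and 1.36 CPM with overexpression, and Cldn5 had at most 1 read in any library. The 12 endothelial markers summed to between 6480 and 6572 CPM in the controls and between 5554 and 5716 CPM with overexpression. Of 11 tested, 7 were lower and 2 higher in edgeR (adjusted p below 0.05), beside 21.3% and 21.9% of all genes tested. Their median log2 fold change was -0.17, and their part in the receptor differences was not tested. The 4 LPL overexpression libraries also carried pigment cell transcripts. A list of 10 pigment cell markers summed to between 1348 and 1410 CPM there and to between 3.15 and 3.72 CPM in the controls, where Tyrp1, Dct, Mlana, Tyr, Oca2 and Sox10 had 0 reads. All 10 pigment markers were higher in the LPL overexpression libraries (edgeR), and their part in the receptor differences below was not tested. In bulk RNA, fewer cells of a type and less RNA per cell cannot be told apart.

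Start regions of 4 of the receptor genes are shown because these genes span the levels found, with Lrp1 and Lrp8 abundant and Vldlr and Sorl1 close to undetected. Each window runs from 250 bases before to 50 bases after a start annotated by RefSeq (GRCm38.p6), 5′ to 3′ on the strand of the gene. A single capital marks the first transcribed base, and the run of capitals in Sorl1 marks CACGTG. Windows were held for 6 of the 8 genes, and Sort1 and Scarb1 had none in the table.
Lrp8, chr4:107802635-107802934, plus strand: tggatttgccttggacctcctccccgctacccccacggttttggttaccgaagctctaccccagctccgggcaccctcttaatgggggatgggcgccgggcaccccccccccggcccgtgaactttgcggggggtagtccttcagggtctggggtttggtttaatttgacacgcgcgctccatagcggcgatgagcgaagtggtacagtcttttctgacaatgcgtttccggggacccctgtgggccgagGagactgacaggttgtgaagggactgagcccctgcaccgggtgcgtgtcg
Lrp1, chr10:127621099-127621398, minus strand: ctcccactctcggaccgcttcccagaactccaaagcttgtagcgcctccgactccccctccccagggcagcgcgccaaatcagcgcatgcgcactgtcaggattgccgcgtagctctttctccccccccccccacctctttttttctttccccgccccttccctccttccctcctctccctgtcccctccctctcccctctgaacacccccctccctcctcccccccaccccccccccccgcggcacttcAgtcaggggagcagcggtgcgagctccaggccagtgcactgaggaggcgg
Vldlr, chr19:27216234-27216533, plus strand: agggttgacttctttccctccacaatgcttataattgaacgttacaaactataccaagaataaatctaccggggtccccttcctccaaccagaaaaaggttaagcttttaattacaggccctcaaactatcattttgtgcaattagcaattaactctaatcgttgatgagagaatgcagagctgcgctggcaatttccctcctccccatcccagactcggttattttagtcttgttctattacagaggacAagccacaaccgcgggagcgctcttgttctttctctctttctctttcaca
Sorl1, chr9:42124248-42124547, minus strand: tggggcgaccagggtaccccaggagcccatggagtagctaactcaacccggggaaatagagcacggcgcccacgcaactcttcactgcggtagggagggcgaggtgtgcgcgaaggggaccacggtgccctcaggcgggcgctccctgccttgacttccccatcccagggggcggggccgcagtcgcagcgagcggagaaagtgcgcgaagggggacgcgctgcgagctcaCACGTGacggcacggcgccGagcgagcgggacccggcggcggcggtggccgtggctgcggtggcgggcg
The Vldlr window had the lowest GC content of these 4 at 43.0%, against 62.7% for Lrp8, 67.7% for Lrp1 and 72.3% for Sorl1. A second Vldlr window, from 27216770 to 27217069, held 68.0% GC, and another Sorl1 window, from 42077164 to 42077463, held 44.0%. Both strands of the windows were searched for CACGTG, which reads the same on either strand, and for CATGTG, exact matches only. Both are E-boxes and cannot match at the same 6 bases. CACGTG lay in the Sorl1 window, where it began 19 bases before the start, and 7.15% of all 32851 promoter windows held it. CATGTG was found, on the opposite strand, in a second Lrp8 window (107822911 to 107823210) and in 14.2% of all windows. The members' other 8 windows held neither.

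Per unit of exonic length the 8 genes fell into 2 tiers, shown in the plot of TPM by gene. TPM divides reads by exonic length and so allows levels of different genes to be compared. Lrp10 led in the controls at 61.9 ± 1.24 TPM (SD, n = 3), followed by Lrp8 at 35.5 ± 1.15, Scarb1 at 33.5 ± 0.357 and Lrp1 at 28.1 ± 1.08 TPM. Sort1 stood lower at 4.43 ± 0.134 TPM. The control values of neighbours in this order did not overlap.

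Lsr, Vldlr and Sorl1 formed the lower tier in the controls. Their mean levels were 0.112, 0.108 and 0.0248 TPM, and each was below Sort1 in every library. Lsr and Vldlr could not be ordered, because Lsr was the higher of the pair in 1 of 3 controls and in 2 of 4 LPL overexpression libraries. Sorl1 was below Vldlr in 3 of 3 controls and in 3 of 4 LPL overexpression libraries.

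With LPL overexpression the order of the abundant receptors changed at a single place. Scarb1, at 34.1 ± 0.717 TPM (SD, n = 4), stood above Lrp8 at 30.2 ± 0.860 TPM in 4 of 4 libraries, whereas Lrp8 was the higher in 3 of 3 controls. Lrp10 remained first at 67.1 ± 4.83 TPM and Lrp1 had 24.6 ± 2.15 TPM. Sort1 had 10.8 ± 0.736 TPM and still ranked below Lrp1. Summed over the 8 genes, the level was 164 ± 1.52 TPM in the controls and 167 ± 8.78 TPM with overexpression. Within that sum the share of Sort1 was 2.71% ± 0.0695 (SD, n = 3) in the controls and 6.46% ± 0.139 (SD, n = 4) with overexpression. The share of Lrp8 was 21.7% ± 0.500 and 18.1% ± 0.709.

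**Figure D1:**
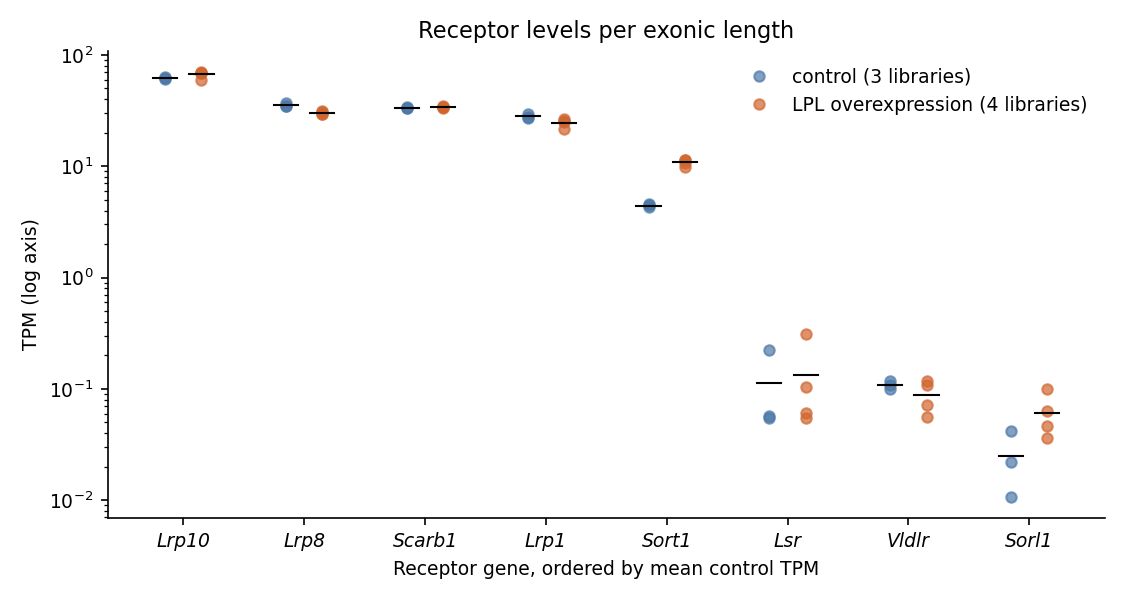
TPM of each receptor gene on a log axis, in 3 control and 4 LPL overexpression libraries, with lines at the group means. Lrp10, Lrp8, Scarb1 and Lrp1 form the upper tier in both groups, Sort1 lies lower and separates by group, and Lsr, Vldlr and Sorl1 lie below the level of Sort1 in every library.

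Reads were then compared between the groups by edgeR's quasi-likelihood test over all genes. A filter on low counts left 13639 genes, 5 of the 8 members among them, and Vldlr, Sorl1 and Lsr did not pass it. Of the 5 tested members 1 rose, Sort1, and 1 fell, Lrp8, at an adjusted p below 0.05 (Benjamini-Hochberg over all genes tested). Beside these 2 of 5, 43.2% of all genes tested were called, a share near that of the members, so the count is no result about the group. By direction, 21.9% of all genes were called higher and 21.3% lower. The median log2 fold change was -8.5e-04 over the 5 tested members and 0.00235 over all genes tested.

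**Figure D2:**
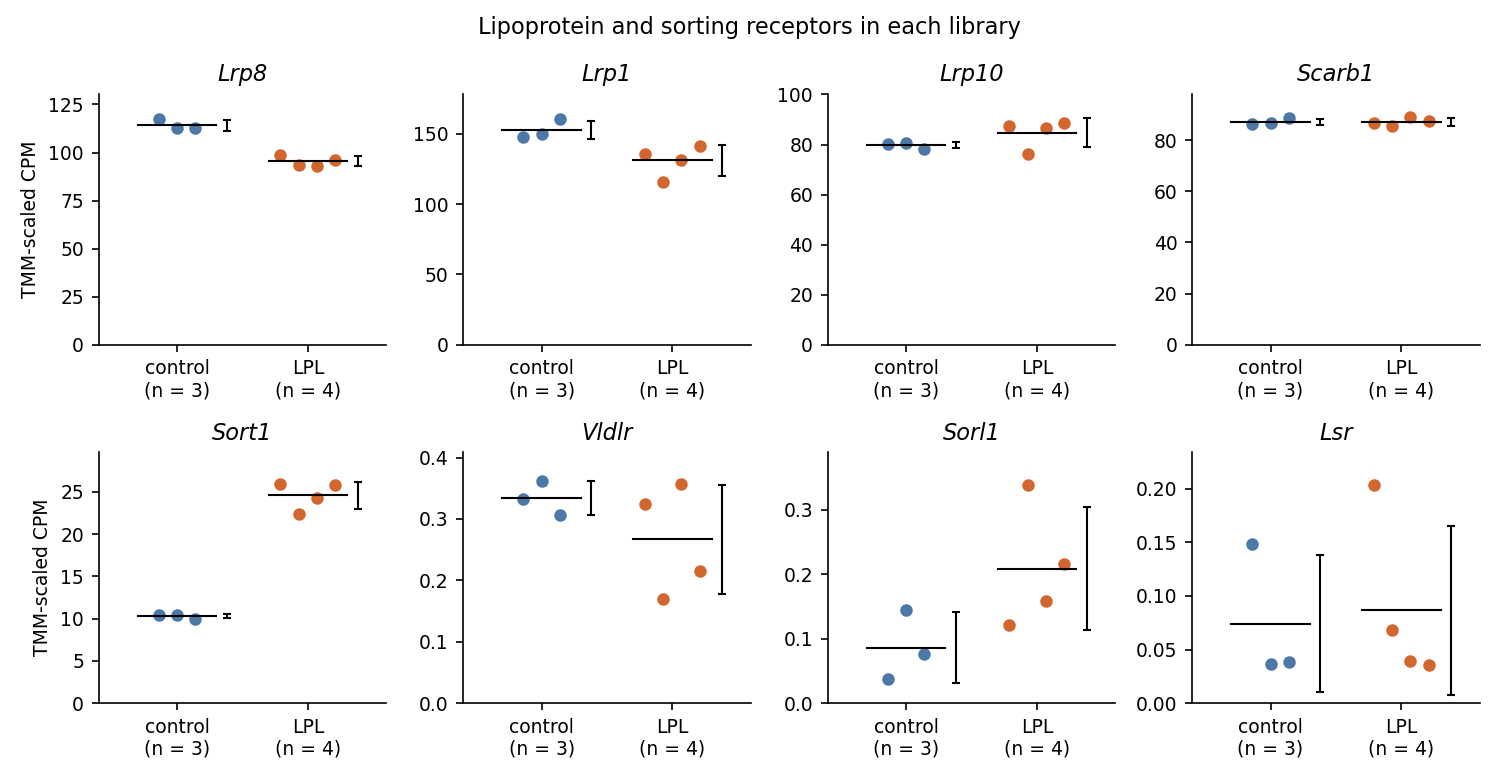
TMM-scaled CPM of each member in every library, with a line at each group mean and a bar of 1 SD beside it, on axes that start at 0. The 4 LPL overexpression libraries lie above the 3 controls for Sort1 and below them for Lrp8 and Lrp1, and the groups overlap for the other 5 genes.

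Among the receptors of the LDL receptor family, Lrp8 was lower with LPL overexpression. Lrp8 encodes ApoER2, a receptor of apolipoprotein E and reelin. The gene (ENSMUSG00000028613.14) spans 107802261 to 107876840 of chromosome 4 (mm10, plus strand) with 10514 bases of exon, and the window printed for it belongs to a start further into the gene. The 3 controls had 118, 113 and 113 CPM. The 4 LPL overexpression libraries had 98.6, 93.4, 93.2 and 96.3 CPM. All 4 were under all 3 controls, so the groups did not overlap, as in 44.6% of genes tested. On the log2 scale the change was -0.26 (SE 0.03, edgeR adjusted p = 2.18e-10), a level 0.835 times that of the controls. Of all genes tested, 9.93% had a lower log2 fold change. The antisense genes Lrp8os1 and Lrp8os2 overlap Lrp8 and had at most 1 read over all libraries.

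Lrp1, a large endocytic receptor that binds LPL, apolipoprotein E and protease complexes, had lower values in the LPL overexpression libraries but did not pass the test. The gene (ENSMUSG00000040249.15) lies on the minus strand of chromosome 10, from 127538161 to 127621148, and has 17717 bases of exon. The controls had 148, 150 and 160 CPM, and the LPL overexpression libraries 136, 116, 132 and 141 CPM. The groups did not overlap, and LPL overexpression replicate 2 was the lowest library. The log2 fold change was -0.22 (SE 0.08, 95% interval -0.41 to -0.03), with an unadjusted p of 0.033 and an adjusted p of 0.0718 in edgeR. The call depended on the fit, with adjusted p from 1.19e-11 to 0.191 over 15 alternatives. It passed with DESeq2 (adjusted p = 0.0178) and, in edgeR, without LPL overexpression replicate 2 (-0.16, adjusted p = 2.62e-05) and without LPL overexpression replicate 4 (-0.25, adjusted p = 3.37e-04).

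Lrp10, a receptor that traffics between the Golgi network and endosomes, was the most abundant member per length. The gene (ENSMUSG00000022175.8) lies on chromosome 14 from 54464164 to 54471497, with 4201 bases of exon. It had 80.3, 80.5 and 78.3 CPM in the controls and 87.6, 76.1, 86.6 and 88.6 CPM in the LPL overexpression libraries. LPL overexpression replicates 1, 3 and 4 were above every control and replicate 2 was below every control, so the groups overlapped. In log2 the difference was 0.09 (SE 0.04, edgeR adjusted p = 0.0794). Without LPL overexpression replicate 2 it was 0.14 and passed (adjusted p = 4.42e-04 in edgeR, in a range of 4.42e-04 to 0.202 over 15 alternatives).

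Replicate 2 was also the lowest LPL overexpression library for Scarb1 and Sort1, and so for 4 of the 5 tested members. How often it was the lowest over all genes tested was not computed, so this count is no result about the members. Replicate 2 also had the most reads, 29210847, for which CPM are scaled, and a link was not tested.

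Vldlr, the VLDL receptor, which takes up triglyceride-rich particles together with LPL in heart, muscle and fat, was close to undetected. The gene (ENSMUSG00000024924.14) lies on chromosome 19 from 27216484 to 27254231, and the first window printed for it begins transcription at that same base. It had 9, 10 and 8 reads in the controls and 8, 5, 9 and 6 reads in the LPL overexpression libraries. The groups overlapped, and the pooled level with overexpression was 0.781 times that of the controls (95% counting interval 0.443 to 1.38). Ratios within this interval could not be told apart at this depth.

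Of the sorting receptors, Sort1 rose with LPL overexpression, with the largest change of the 5 tested members. Sort1 encodes sortilin, which moves cargo from the Golgi to endosomes and can bind LPL and carry it into the cell. The gene (ENSMUSG00000068747.14) spans, on the plus strand of chromosome 3, 108284082 to 108361511, with 7569 bases of exon. Its reads numbered 282, 287 and 260 in the controls and 637, 662, 613 and 716 in the LPL overexpression libraries. As CPM the controls had 10.4, 10.4 and 9.98 and the LPL overexpression libraries 25.9, 22.4, 24.3 and 25.8. All 4 LPL overexpression libraries were above all 3 controls, with no overlap. The mean went from 10.3 ± 0.256 CPM (SD, n = 3) to 24.6 ± 1.61 CPM (SD, n = 4), which is 2.39-fold. On the log2 scale the rise was 1.26 (SE 0.06, edgeR adjusted p = 9.85e-24), and 531 of the 13639 genes tested (3.89%) had a higher one. At least 2-fold rises made up 4.53% of genes tested. The value lay between 1.12 and 1.31 under 15 alternatives, and between 1.23 and 1.31 with each library left out in turn.

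The 4 libraries with the higher Sort1 were those with the pigment cell markers, at 1348 CPM or more, and which cells gave the added Sort1 reads was not tested. The gene Gm43099 lies within Sort1 on the same strand and had 2 reads in each group. Gm12523, which overlaps the first bases of Sort1 on the opposite strand, had 0 reads.

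Sorl1 encodes SORLA, a sorting receptor known for retrieving the amyloid precursor protein, with both VPS10 and LDL receptor repeats. The gene (ENSMUSG00000049313.8) lies on the minus strand of chromosome 9, from 41964720 to 42124297. It had 1, 4 and 2 reads in the controls and 3, 10, 4 and 6 in the LPL overexpression libraries. The 7 and 23 reads gave a pooled ratio of 2.47, with a 95% counting interval of 1.03 to 6.83 that leaves out the spread between libraries. In log2 this ratio was 1.31, and it ran from 0.94 to 1.92 with each library left out in turn, the highest without control replicate 2. The groups overlapped, and with no filter on low counts edgeR gave an adjusted p of 0.131. Sorl1 is the member whose start window held CACGTG.

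Scarb1 had nearly equal means in the groups and did not pass the test. The gene (ENSMUSG00000037936.15) lies on the minus strand of chromosome 5, from 125277087 to 125341094. The controls had 86.4, 86.6 and 88.6 CPM and the LPL overexpression libraries 86.7, 85.4, 89.1 and 87.5 CPM. The groups overlapped. The difference in log2 was -8.5e-04 (SE 0.03, edgeR adjusted p = 0.986), and its 95% interval reached from -0.06 to 0.06. Gm42633, within Scarb1 on the same strand, had 1 read in each group.

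Lsr, the lipolysis-stimulated lipoprotein receptor, is also a protein of tricellular junctions. The gene (ENSMUSG00000001247.16) lies on the minus strand of chromosome 7, from 30957770 to 30973464. In the sense orientation it had 4, 1 and 1 reads in the controls and 5, 2, 1 and 1 in the LPL overexpression libraries, a pooled ratio of 1.13 (95% counting interval 0.359 to 3.86). Most oriented reads over its exons ran the other way, with 64 forward reads in the controls (91.4%) and 84 with overexpression (90.3%). The antisense gene Gm4673, which spans 30956909 to 30961619, overlaps the 3′ end of Lsr and had 154 and 236 reads of its own. Gm17077, also antisense at that end, had 3 reads in each group. Counted without strand, reads of Lsr and of these genes could not be told apart where they overlap.

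**Figure D3:**
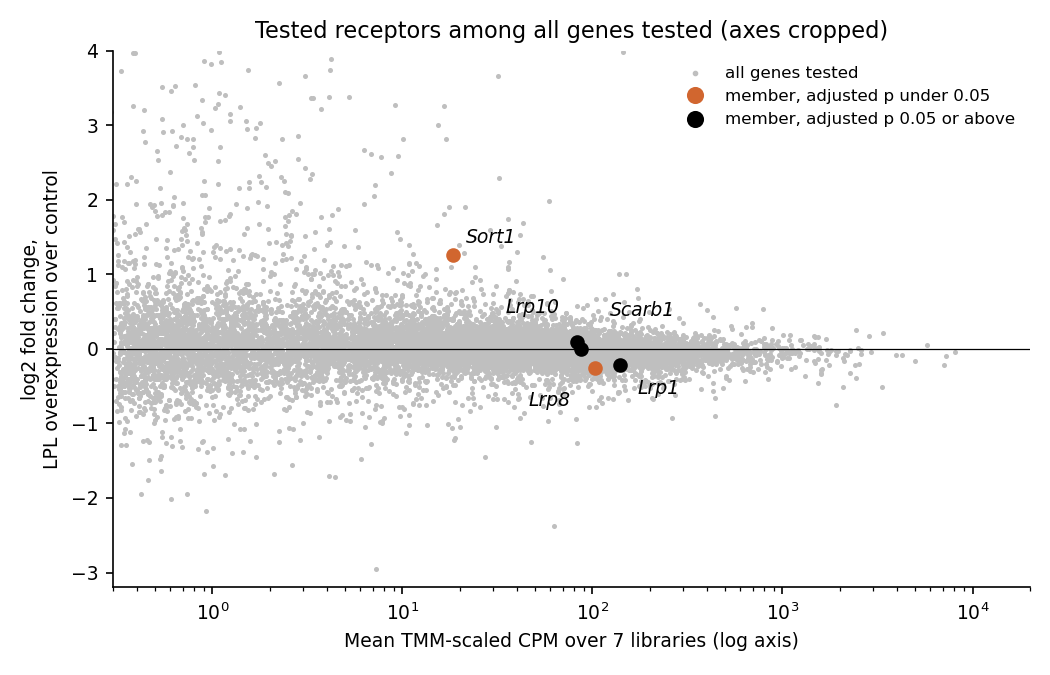
Log2 fold change (LPL overexpression over control) against mean CPM over the 7 libraries (log axis) for the genes tested, in grey (axes cropped), with the 5 tested members as large points, orange where the adjusted p was below 0.05. Sort1 stands at 1.26, where 531 genes tested lie higher, and Lrp8 at -0.26 lies close to Lrp1 at -0.22, with Lrp10 and Scarb1 near 0.

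Ratios of 2 receptors within a library do not depend on its scaling, and 2 were compared with a two-sided exact permutation test that runs through all 35 assignments of libraries to groups. The smallest p this design allows is 0.0286. The log2 ratio of TPM of Sort1 to Sorl1, the pair of sorting receptors, was 8.72, 6.75 and 7.60 in the controls and 8.31, 6.63, 7.84 and 7.48 in the LPL overexpression libraries. The groups overlapped, and the difference was -0.12 in log2 (exact permutation p = 0.8, adjusted over the 2 ratios 0.8), with an SD of 0.990 among controls, where Sorl1 had 1 to 4 reads. The ratio of Vldlr to Lrp8, both receptors of apolipoprotein E and reelin, was -8.40, -8.22 and -8.46 in log2 in the controls and -8.18, -9.04, -7.97 and -8.74 with overexpression. These groups overlapped too, with a difference of -0.13 (exact permutation p = 0.657, adjusted 0.8). The SD was 0.495 with overexpression, where Vldlr had 5 to 9 reads. A difference as small as the change of Lrp8 could go unseen at this spread.

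Genes whose values over the 7 libraries lay closest to those of the 3 members with the lowest adjusted p were found by the root mean square difference of log2 CPM relative to the control mean. This choice builds in a like difference between the groups, so the changes of these genes lend no support to those of the members. For Sort1 they were Bgn (0.0774), Pik3r3 (0.0837) and Col4a5 (0.0988). Bgn, the gene of the proteoglycan biglycan, rose from 31.1 ± 2.27 (SD, n = 3) to 73.4 ± 4.49 CPM (SD, n = 4). For Lrp8 they were Zfp955b (0.0220), Micall1 (0.0238) and Als2cl (0.0245). Micall1 fell from 216 ± 2.01 to 182 ± 4.53 CPM. For Lrp1 they were Zbtb10 (0.0329), Rnf19b (0.0407) and Siah2 (0.0430). Their adjusted p in edgeR were 0.00600, 6.54e-06 and 0.00495, which, given the choice, say nothing further about Lrp1. The calls of Zbtb10 and Siah2 were lost in some alternatives.

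Of 12 other genes of the LDL receptor family 6 were tested, of which 3 rose, 2 fell and 1, Lrp11, did not pass. Their median change in log2 was 0.23. Lrp4, which organises the neuromuscular synapse and modulates Wnt signalling, rose from 0.174 ± 0.0254 to 1.25 ± 0.0594 CPM. Ldlrad3 rose from 16.7 ± 0.706 to 20.5 ± 0.949 CPM. Lrp6, a Wnt co-receptor, fell from 190 ± 7.34 to 168 ± 2.90 CPM. The other rise was Lrp12 and the other fall Lrp5, the second Wnt co-receptor, both named after their values were seen. Lrp1b and Ldlrad2 had 0 reads in all libraries.

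The remaining VPS10 receptors were low. Sorcs2, a receptor of neurotrophin precursors, fell from 1.29 ± 0.341 to 0.502 ± 0.0970 CPM (-1.35 in log2, SE 0.24, edgeR adjusted p = 8.14e-06). Thus the VPS10 receptors with enough reads to test moved in opposite directions, Sort1 up and Sorcs2 down. Sorcs1 and Sorcs3 had 0 control reads and 1 and 6 reads with overexpression, too few to test.

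Of 11 other scavenger receptors and LDL carriers 5 were tested, of which 2 rose and 1 fell (median -0.03 in log2). Scarb2, a lysosomal membrane protein of the family of Scarb1, rose from 90.8 ± 1.07 to 100.3 ± 2.78 CPM. Scarf2 had 1 read in each control and 113, 78, 126 and 113 reads in the LPL overexpression libraries, a ratio of 108 (95% counting interval 36.7 to 525). The pigment cell markers were present in the same 4 libraries, and their part in the rise of Scarf2 was not tested. Acvrl1, the ALK1 receptor that also binds LDL in endothelium, fell from 77.3 ± 2.78 to 71.2 ± 2.97 CPM, a call lost on TPM values and with library totals alone (adjusted p from 4.87e-04 to 0.0806 over 15 alternatives). Cd36, a fatty acid and lipoprotein receptor, had 1 read in each group, and Msr1 and Marco had 0 in both.

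Receptor chaperones and adaptors were called in 4 of 11 cases tested, 2 in each direction, with a median of -0.02. Dab2, a clathrin adaptor of the LDL receptor family, fell from 574 ± 10.4 to 448 ± 8.05 CPM (-0.36 in log2, SE 0.02, edgeR adjusted p = 4.38e-18). Numb, another endocytic adaptor, fell from 43.4 ± 0.359 to 38.3 ± 0.984 CPM. Gulp1, an engulfment adaptor that binds LRP1, rose from 15.5 ± 1.62 to 21.7 ± 1.02 CPM.

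Of 14 retromer and Golgi sorting genes, all tested, 4 rose, 1 fell and 9 did not pass, with a median of 0.02. Gga2, an adaptor that sorts sortilin and mannose 6-phosphate receptors at the Golgi, rose from 32.1 ± 0.823 to 42.8 ± 1.16 CPM. Igf2r, the large mannose 6-phosphate receptor, rose from 71.1 ± 3.18 to 85.6 ± 3.78 CPM. Snx6, a sorting nexin that works with retromer, fell from 167 ± 3.14 to 141 ± 3.37 CPM. These 3 genes were named for the lowest adjusted p of the list. For each, all 4 LPL overexpression libraries lay beyond all controls, which that choice favours. The 44.6% of all genes tested whose groups did not overlap is therefore no yardstick for them.

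Among 7 tested genes of receptor cleavage and degradation 1 rose and 1 fell, with a median of -0.02. Mylip, the ubiquitin ligase IDOL that targets VLDLR and ApoER2 for degradation, had 1, 1 and 2 reads in the controls and 27, 37, 25 and 29 in the LPL overexpression libraries. Its level rose from 0.050 ± 0.023 to 1.1 ± 0.11 CPM (4.35 in log2, SE 0.42, edgeR adjusted p = 1.54e-12), in the libraries that also carried the pigment cell markers, whose part was not tested. Adam10, a protease that sheds receptor ectodomains, fell from 228 ± 1.31 to 215 ± 3.85 CPM, a call lost on TPM values, with upper-quartile factors and with library totals alone (adjusted p from 0.00562 to 0.168 over 15 alternatives). Adam17 stood at 193 ± 5.94 and 185 ± 4.60 CPM and did not pass.

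Of 11 tested ligands of these receptors 3 rose and 4 fell, with a median of -0.05. Apoe, the ligand shared by most of the LDL receptor family, rose from 4.11 ± 0.178 to 52.4 ± 1.1 CPM, 12.7-fold, again in the libraries with the pigment cell markers, whose part was not tested. Plat, the tissue plasminogen activator cleared by LRP1, fell from 51.3 ± 1.86 to 32.3 ± 1.12 CPM. Psap, the precursor of saposins and a cargo of sortilin, fell from 461 ± 8.47 to 417 ± 5.25 CPM.

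Genes that anchor, mature or inhibit LPL were called in 2 of 4 cases. Angptl4, the inhibitor of LPL, fell and Lmf1, its maturation factor, rose. Gpihbp1, which holds LPL on capillary endothelium, stood at 2.02 ± 0.130 and 2.21 ± 0.236 CPM (adjusted p = 0.560 in edgeR). The rise of Lmf1 was lost in 6 alternatives. Of 5 tricellular junction partners of Lsr only Ocln, the gene of occludin, was tested, and it rose from 0.395 ± 0.0972 to 0.768 ± 0.204 CPM, a call that was lost when control replicate 1 was left out (edgeR adjusted p = 0.0519) and in DESeq2 (adjusted p = 0.0523), in a range of 0.00322 to 0.0523 over 15 alternatives. Over all these lists, 17 of 60 tested genes rose (28.3%) and 13 fell (21.7%), beside 21.9% and 21.3% of all genes, and the median change in log2 was -2.7e-04.

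Several lists of markers of other cell types had summed levels that did not overlap between the groups. Among single genes tested, 44.6% had groups that did not overlap. The 9 macrophage and blood markers summed to between 72.1 and 77.4 CPM in the controls and between 94.8 and 104 CPM with overexpression, nearly all from Cd68. Of 2 tested in that list Cd68 rose from 74.7 to 98.7 CPM (edgeR adjusted p = 4.3e-14). The other, Fcer1g, fell from 0.557 to 0.306 CPM (edgeR adjusted p = 0.0326). Adgre1 and Hbb-bs had 0 reads. The 10 epithelial, exocrine and islet markers summed to between 51.5 and 53.3 CPM and between 42.7 and 45.2 CPM, with Epcam, Ins1 and Ins2 at 0. Krt18 held the largest part of this sum, at 31.5 CPM in the controls and 26.5 CPM with overexpression. Of 4 tested in that list Krt18 and Cpb1 fell and Cela1 rose, from 2 reads over the controls to 69 with overexpression (edgeR adjusted p = 3.93e-09). Fibroblast and mural markers (9 genes) summed to between 5.45 and 6.16 CPM in the controls and between 7.69 and 8.71 CPM with overexpression, with Dcn and Lum at 0. Of 3 tested in that list 1 rose, Col1a2, from 2 reads over the controls to 139 with overexpression (edgeR adjusted p = 4.8e-14). Pdgfra and Pdgfrb, which held most of that sum, did not pass. The 4 adipocyte markers summed to at most 0.0812 CPM in any library. Neuronal and Schwann cell markers (6 genes) summed to between 5.81 and 6.49 CPM in the controls and between 32.5 and 34.1 CPM with overexpression, mostly Tubb3, with Snap25 at 0. Their part in the receptor differences was not tested.

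**Figure D4:**
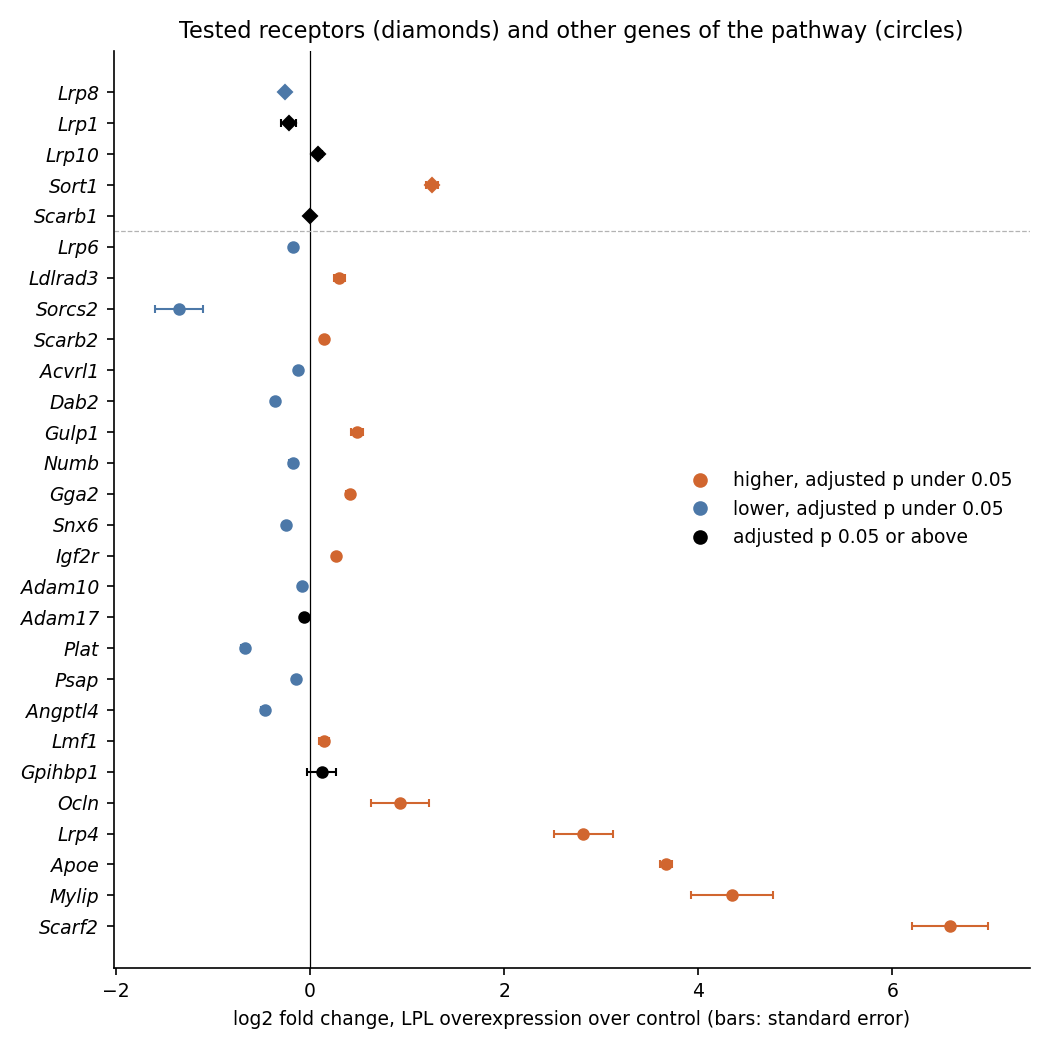
Log2 fold change (LPL overexpression over control) with its standard error for the 5 tested members, above the dashed line, and for the named genes of their pathway. Sort1 at 1.26 is exceeded by Lrp4, Apoe, Mylip and Scarf2, and Sorcs2 at -1.35 has the lowest value shown.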

How the data were processed

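Per the labels' protocols, total RNA (RNeasy) went into stranded libraries. The submitters' processing notes name STAR and mm10; the annotation release was not given in the sources used here. Counts as deposited are whole reads per gene without normalization. Per the file headers they are given by read orientation, and the reverse orientation, 97.0% to 97.1% of oriented reads, was used. The TPM used is the authors' set that sums to 1000000 over all genes. The deposited FPKM and a second deposited TPM set, treated as a score, were not used.

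Counts were tested with edgeR 4.0.16 (R 4.3.3): TMM, filterByExpr, robust quasi-likelihood F test, group as the only term, Benjamini-Hochberg over 13639 genes. The standard error was taken as the size of the log2 change divided by the root of F. The step was checked on simulated counts in which few genes changed, equally in both directions, with a single dispersion. That setting is milder than these data, where 43.2% of genes tested were called. Counting intervals are exact (Clopper-Pearson, 95%), hold counting error only, and take reads as independent. Alternatives used DESeq2 1.42.0, limma 3.58.1 on log2(TPM + 1) and log2(TPM + 0.1), upper-quartile factors, library totals, no filter, both orientations together, each library left out, and a replicate block. Coordinates are 1-based on mm10, as in the files; 7 of the 8 members had the start and end of GENCODE vM21, from which overlapping genes were taken.

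The members, lists and rules were chosen with earlier results of these data known. Named genes are the members, Lpl, Cd36, Gpihbp1, Apoe, up to 3 genes per pathway list with the lowest adjusted p, and the 3 closest patterns, among genes of at least 5 CPM, for each of 3 members. Mesd was matched by its older symbol Mesdc2. Protein sequences were not used here. Some listed genes, and ratios to them, are not reported here and were left out of the counts per list.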

Additional observations from a re-analysis of the deposited data

Results flagged for a closer look

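Lrp10 in LPL overexpression replicate 2, at 76.1 CPM, stood apart from the other 3 libraries of its group, which lay between 86.6 and 88.6 CPM. Its gap to the nearest of them was large for the range of the group, a rule that chance meets in about 1 of 20 groups.

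Sort1 had 13 reads in forward orientation, opposite to the gene, over the LPL overexpression libraries and 2 over the controls. These reads were outside the counts that were tested. They made up 0.492% and 0.241% of its oriented reads. Both shares were below the forward share of the whole libraries, where 97.0% to 97.1% of oriented reads were reverse.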

How the results depend on the processing

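Sort1 and Lrp8 kept their direction and their call under all 15 alternatives, with log2 fold changes of 1.12 to 1.31 and -0.28 to -0.22. Scarb1 was not called in any. Lrp1, not called at first, passed with DESeq2 (-0.22), no filter (-0.22), limma on log2(TPM + 1) (-0.19) and log2(TPM + 0.1) (-0.19), with the replicate block (-0.26) and without LPL overexpression replicate 2 or replicate 4, and lay between -0.25 and -0.16 with each library left out. Lrp10 passed with upper-quartile factors (0.11), library totals (0.13) and no filter (0.088), and lay between 0.068 and 0.14 with each library left out. The cause was not tested. The log2 pooled ratio of Lsr ran from -0.76 (both orientations together) to 1.17 (without control replicate 1), with 15 sense reads in all, and those of Vldlr and Sorl1 kept their sign, with Sorl1 between 0.94 and 1.92 with each library left out. Ratios within libraries moved by less than their SD in all 18 cases. Same-numbered control and LPL overexpression libraries did not deviate together (r of -0.0189, -0.0391 and 0.0193 across genes). With so few libraries this cannot decide whether the numbers pair the samples, and the labels do not say. With the replicate block 5794 genes were called against 5888. No control shares the number of LPL overexpression replicate 4, so the block takes that library out of the comparison. Both ratios then equalled those without it (-0.096 and -0.040). Over all genes 2988 were higher and 2900 lower, a balance that was 3941 and 2112 with library totals and 3296 and 2085 on log2(TPM + 1). Of 360 results for named genes under alternatives 15 lost their call, 1 gained one and none reversed. Depth limits Vldlr, Sorl1 and Lsr, with at most 10 reads per library.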
